A study of Mus musculus with 2 samples.

Results

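The abundant antisense noncoding genes are the autosomal genes of GENCODE type antisense that reached 10 TPM or more in both libraries of mouse testis. TPM gives a gene's share of all transcripts in a library, scaled for transcript length and depth. The rule kept 150 of the 2017 autosomal antisense genes in the tables, or 7.44%. The genes were selected on their own TPM values in these libraries, so their levels are given as a description. The level of the coding gene on the other strand was not used by the rule.

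The study sequenced polyA mRNA from the testis of 1 adult male C57BL/6J mouse aged 10 weeks, an inbred laboratory strain. Per the labels the 2 libraries are technical replicates 2 and 1 of 1 biological replicate, and replicate 2 was done later. There was no treatment and no second genotype. Every value therefore describes this animal, and a difference between the libraries has no replicate check across animals. Values are given in the order replicate 2, replicate 1.

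An antisense gene is transcribed from the DNA strand opposite a neighbouring or overlapping gene, and its RNA has no annotated protein product. Known antisense RNAs can act on the gene they overlap, act elsewhere in the cell, or have no known role. The adult testis is known for an unusually broad range of transcripts, many of them made in meiotic cells and in spermatids, the germ cells that become sperm.

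The germ cell, Sertoli cell and Leydig cell markers listed for the check of the tissue were largely present. At 1 TPM or more in both libraries stood 12 of 13 germ cell markers, 4 of 5 Sertoli cell markers and 5 of 5 Leydig cell markers. Amh, a Sertoli cell hormone, was at 2.41 TPM in replicate 2 and listed at 0 in replicate 1. The summed germ cell markers reached 50990 and 11264 TPM, the Sertoli markers 1112 and 891 TPM, and the Leydig markers 2072 and 425 TPM. These sums do not stand for each marker. Prm1, Prm2, Tnp1 and Tnp2 of late germ cells were higher in replicate 2. So were Ldhc, at 4131 and 2850 TPM, and Zbtb16, at 1.91 and 0.75 TPM. Sycp1, Sycp3, Ddx4, Dazl, Pgk2, Stra8 and Acrv1 were lower in replicate 2. The Leydig sum differed mostly through Insl3, at 1630 and 83.2 TPM. The tables hold 20675551 and 31995372 expected counts, the estimated number of reads of each gene. In whole tissue a gene made by fewer cells and a gene made at a lower level per cell cannot be told apart.

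Of the 150 genes, 60 began within 1000 bases of an annotated transcript start of a coding gene on the other strand, here called a coding start. Distances run from the start of the most abundant antisense transcript to the nearest annotated start of any transcript of a coding gene. Such a start can lie far inside the coding gene, and its transcript was not required to be abundant. The limit was chosen after the data were seen. Promoter windows, which run from 250 bases before to 50 bases after a gene's start, came from RefSeq on build GRCm38.p6. They matched 91 of the 150 genes by symbol. In 66 of these the RefSeq start lay within 50 bases of the start of the most abundant transcript in the tables. The first 3 windows below are shown because annotated transcripts of an antisense gene and of a coding gene start there in opposite directions. These examples were picked from the 60 after their values were seen. Capitals run from the start of the coding gene to the start of the antisense gene, each strand is that of the antisense gene, and the coding gene reads leftward from the first capital.
Med9os (chr11:59948098-59948397, minus strand): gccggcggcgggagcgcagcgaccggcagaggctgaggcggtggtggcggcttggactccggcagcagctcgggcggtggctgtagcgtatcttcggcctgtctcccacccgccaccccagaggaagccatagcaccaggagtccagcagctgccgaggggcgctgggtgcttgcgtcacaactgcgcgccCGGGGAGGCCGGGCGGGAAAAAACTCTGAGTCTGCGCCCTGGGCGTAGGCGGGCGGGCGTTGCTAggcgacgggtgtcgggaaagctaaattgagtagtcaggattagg
Gm7008 (chr12:40223114-40223413, plus strand): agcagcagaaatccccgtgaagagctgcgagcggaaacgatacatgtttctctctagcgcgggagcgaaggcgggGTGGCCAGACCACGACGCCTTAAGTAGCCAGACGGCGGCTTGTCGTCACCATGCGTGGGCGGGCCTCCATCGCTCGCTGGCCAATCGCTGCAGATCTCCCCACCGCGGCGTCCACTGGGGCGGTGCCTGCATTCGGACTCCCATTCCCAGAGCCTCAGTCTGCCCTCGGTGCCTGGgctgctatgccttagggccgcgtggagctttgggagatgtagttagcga
1700029B22Rik (chr7:131146189-131146488, plus strand): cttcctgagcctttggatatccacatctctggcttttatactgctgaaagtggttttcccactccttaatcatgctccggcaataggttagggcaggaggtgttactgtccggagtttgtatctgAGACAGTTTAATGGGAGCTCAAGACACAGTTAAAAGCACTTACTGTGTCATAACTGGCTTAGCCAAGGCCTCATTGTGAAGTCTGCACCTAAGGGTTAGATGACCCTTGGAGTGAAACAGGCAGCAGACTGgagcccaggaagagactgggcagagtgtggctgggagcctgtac
The Med9os window spans the annotated starts of Med9os and Med9, and the whole window holds 30 CpG dinucleotides. Med9 is a subunit of the Mediator complex that links transcription factors to RNA polymerase. The Gm7008 window lies at an annotated start inside the body of Ifrd1, a transcriptional coregulator, and holds 27 CpG dinucleotides. The 1700029B22Rik window, beside the uncharacterised coding gene 4933402N03Rik, holds 2. Shared start regions among these genes were thus both rich and poor in CpG.

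Both genes of each of these shared start regions were present in both libraries. Med9os reached 190 and 141 TPM, against 54.5 and 17.4 TPM for Med9. Gm7008 reached 67.5 and 64.6 TPM, against 25.2 and 62.0 TPM for Ifrd1. 1700029B22Rik reached 67.2 and 96.3 TPM, against 26.2 and 29.0 TPM for 4933402N03Rik. These are levels of whole genes. The antisense transcript whose start was used carried 73.78% and 7.88% of the Med9os level. It carried 49.13% and 42.45% for Gm7008, and 57.74% and 39.79% for 1700029B22Rik. Where the rest of each level starts was not tested. In these 3 the antisense gene stood above the coding gene in each library, by little for Gm7008 in replicate 1. They do not stand for all 60 close pairs: the antisense gene was the higher in both libraries in 18, the coding gene in 28, and the order turned in 14.

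Across the 66 matched windows, the 25 of genes near a coding start held a median of 22 CpG dinucleotides and the 41 of genes farther away a median of 4. The median over one window for each of 27025 genes was 7. GC content had medians of 58.0%, 48.7% and 52.7% in the same order. Windows near a coding start ranged from 1 to 55 CpG dinucleotides and the others from 0 to 39, so the groups overlapped.

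Short motifs were counted on both strands of the windows, a choice made after the data were seen. TGACGTCA, the palindrome that CREM and CREB bind, was in 3 of the 66 windows (4.55%), against 1.88% of all windows. CAGTTG, a core letter string of A-MYB sites, was in 16 (24.2%), against 13.6% of all windows. GTTGCC, part of the site of the RFX factors, was in 10 (15.2%), against 12.7% of all windows. These matches describe letters in a window and not bound sites. Below are 2 of the 3 windows with TGACGTCA, in capitals, shown because they belong to genes whose values follow.
Gm15756 (chr6:90599891-90600190, minus strand): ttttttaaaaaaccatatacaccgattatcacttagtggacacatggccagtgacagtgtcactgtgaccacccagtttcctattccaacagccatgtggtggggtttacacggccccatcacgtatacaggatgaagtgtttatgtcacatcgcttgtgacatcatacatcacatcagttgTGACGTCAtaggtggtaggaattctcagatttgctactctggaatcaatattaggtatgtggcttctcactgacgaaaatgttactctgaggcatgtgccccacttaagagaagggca
Sox5os3 (chr6:144672618-144672917, plus strand): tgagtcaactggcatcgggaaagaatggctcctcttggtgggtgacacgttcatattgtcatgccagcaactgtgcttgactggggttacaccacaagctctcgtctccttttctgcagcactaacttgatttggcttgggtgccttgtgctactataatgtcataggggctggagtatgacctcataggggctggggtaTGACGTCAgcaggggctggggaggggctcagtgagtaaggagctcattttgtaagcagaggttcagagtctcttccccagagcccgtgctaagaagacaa
The third such window belongs to 4930525G20Rik, named after its match was seen. None of these 3 windows lies near a coding start on the other strand.

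Most of the 150 genes stood far below the top of the list. Their median level was 32.4 TPM in replicate 2 and 32.6 TPM in replicate 1, and 104 of them had a mean under 50 TPM. At 100 TPM or more stood 19 in replicate 2 and 18 in replicate 1, with 10 in both. A small set thus carried much of the total. Together they held 9553 and 10617 TPM, or 0.955% and 1.06% of all TPM, and the highest 2 genes alone made up 21.5% and 34.9% of that sum. Expected counts had medians of 304 and 450 and ran down to 22 and 38, with 17 and 13 genes under 100 counts, where counting error is largest.

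Set against the 7.44% of antisense genes, 28.8% of protein-coding genes reached 10 TPM in both libraries (5862 of 20337), and 9.18% of long intergenic noncoding RNA genes (196 of 2134). The antisense genes that passed resembled the intergenic RNAs in build more than the coding genes. Their most abundant transcript had a median length of 743 bases (range 235 to 5112) and a median of 3 exons. The coding genes that passed had medians of 2164 bases and 8 exons, and the intergenic RNAs 720.5 bases and 3 exons. In 10 antisense genes that transcript had 1 exon, in 63 it had 2 exons, and in 77 it had 3 or more. Of the 76 genes with several transcripts, 60 were led by the same transcript in both libraries.

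Names record where many of them were first seen. Of the 150, 72 carry RIKEN clone names, 47 carry Gm names, 26 are named as opposite strand genes of a coding gene and 5 carry other names. RIKEN prefixes used for testis clone libraries, such as the 1700 of 1700027A15Rik, were on 63 of the 150 (42.0%), against 6.64% of the antisense genes below the limit. The prefixes were chosen after the data were seen, and a clone name from testis is not independent of the level in testis. The genes lay on all 19 autosomes, most often on chromosome 4 with 17 genes, and 81 lay on the plus strand.

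The most abundant was 1700027A15Rik (ENSMUSG00000101968.2, chr1:72984844-73025507, plus strand, mm10), whose annotated body contains Tnp1. Tnp1 encodes transition protein 1, which replaces histones on sperm DNA before the protamines. The antisense gene reached 1443 TPM in replicate 2 and 1814 TPM in replicate 1, with 5014 and 9645 counts. Tnp1 reached 9611 and 1008 TPM, so it stood above the antisense gene in replicate 2 and below it in replicate 1. The most abundant antisense transcript, 432 bases with 99.6% and 99.7% of the gene's level, began 8660 bases from the Tnp1 start and shared no base with the main Tnp1 transcript. The pair overlaps through other annotated transcripts, with 40 exonic bases in common.

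Gm11837 (chr4:14929908-14953030, plus strand) was the highest of all in replicate 1. It reached 607 and 1896 TPM from 5691 and 25997 counts, a level over 2-fold lower in replicate 2. Its end overlaps the end of Necab1, a calcium-binding protein of neurons, which stood at 0.22 and 0.29 TPM with 7 and 27 counts. Their main transcripts share 410 bases on opposite strands. In both libraries the antisense gene was over 1000-fold above the coding gene, at 2761-fold and 6539-fold.

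Several more of the 12 most abundant genes lie inside a long coding gene that was low in testis. 4930403D09Rik (chr11:34299707-34308113, plus strand) reached 329 and 368 TPM inside Dock2, a Rac activator of immune cells, at 2.34 and 1.33 TPM. 1700108J01Rik (chr14:122229905-122233654, minus strand) reached 293 and 152 TPM inside Clybl, a mitochondrial enzyme, at 4.82 and 4.34 TPM. 1700019G24Rik (chr6:5963909-5977393, minus strand) reached 213 and 209 TPM inside Dync1i1, a dynein intermediate chain, at 8.14 and 3.76 TPM. The last 2 lie wholly in introns of their partner, with no shared exonic base. 1700010K23Rik (chr16:66657118-66664626, plus strand) reached 126 and 214 TPM inside Cadm2, a cell adhesion gene, at 1.81 and 2.82 TPM, and shares 110 bases with its main transcript.

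Others among the 12 had partners at a high or an unequal level. 4930539J05Rik (chr3:135436209-135438665, minus strand) reached 98.2 and 204 TPM, against 252 and 673 TPM for Ube2d3, a ubiquitin-conjugating enzyme. 4930442L01Rik (chr3:96829826-96832096, minus strand) reached 113 and 162 TPM, against 199 and 118 TPM for Pdzk1, a scaffold of membrane transporters. Both antisense genes begin within 1000 bases of an annotated start of their partner. The first begins 185 bases from it with an overlap, and the second 58 bases from it with a gap. The second antisense gene nevertheless lies wholly inside the annotated body of Pdzk1. The first stood below its partner in both libraries, whereas the order of the second pair turned between the libraries.

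Gm15756, whose window is shown above, reached 207 and 89.4 TPM inside Aldh1l1, a folate enzyme, at 24.8 and 1.63 TPM. Wbscr25 (chr5:134987433-135001350, minus strand) reached 215 and 75 TPM, against 8.45 TPM in replicate 2 for the claudin gene Cldn3, which was listed at 0 in replicate 1. AI507597 (chr4:141614026-141615604, plus strand) reached 381 and 17.3 TPM inside Tmem82, at 2.36 and 0.32 TPM. AI507597 is in the top 12 through replicate 2, and its most abundant transcript differed between the libraries.

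**Figure D1:**
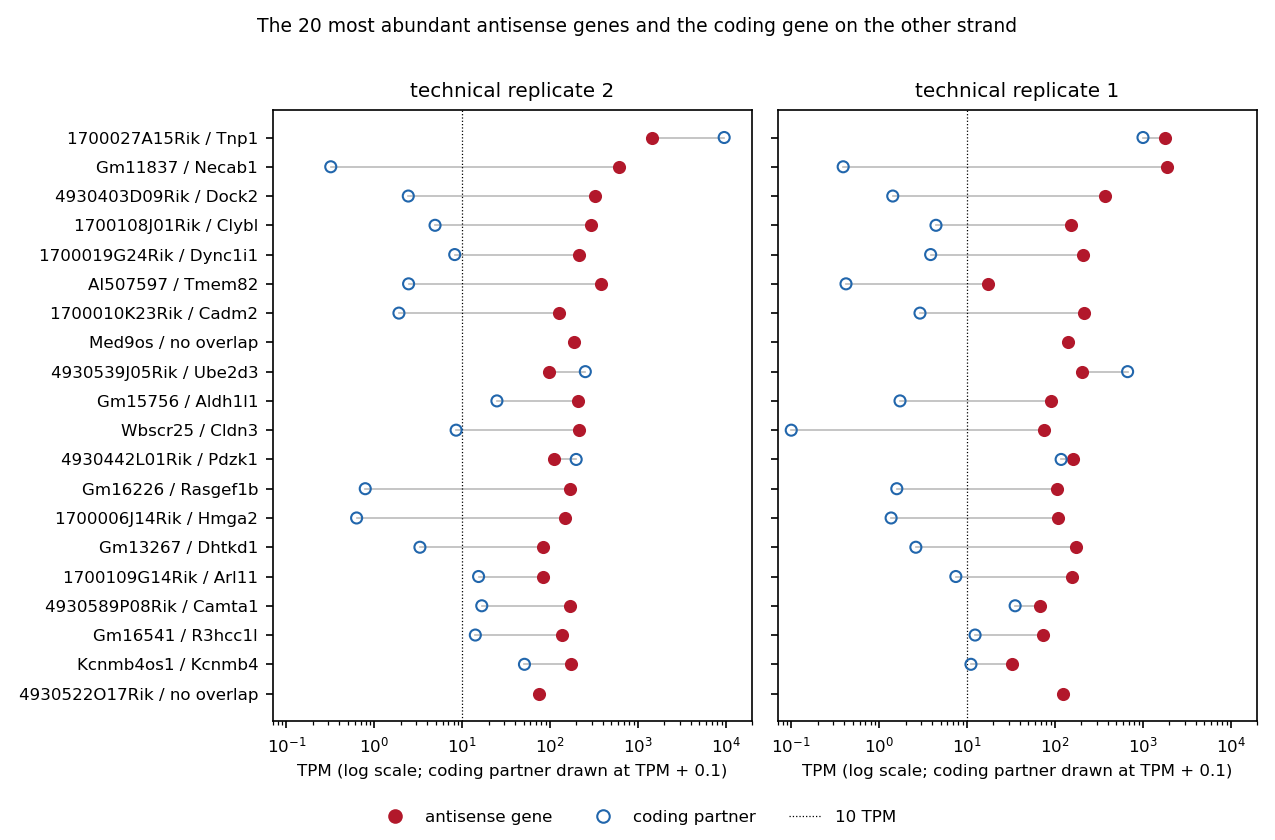
TPM of the 20 most abundant antisense genes by mean level (filled red points) and of the coding gene on the other strand (open blue points, TPM + 0.1) in technical replicate 2 (left) and replicate 1 (right), on log axes. Gm11837 stands at 607 and 1896 TPM with its partner Necab1 under 1 TPM, while Tnp1 stands above 1700027A15Rik in replicate 2 and below it in replicate 1.

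Just inside the limit stood 4933407I08Rik at 10.1 and 17.6 TPM, Gm9748 at 36.5 and 10.1 TPM, and 4930551O13Rik at 10.9 and 10.1 TPM. Just outside stood Gm11418 at 9.97 and 12.6 TPM, Gm15522 at 18.6 and 9.87 TPM, and 4921509A06Rik at 27.0 and 9.87 TPM. A further 75 antisense genes met the limit in replicate 2 but not in replicate 1, and 24 met it in replicate 1 but not in replicate 2. The median GC content of their main transcripts was 51.6% for the first and 43.1% for the second set, and the part of base composition in passing the limit was not tested.

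Of the 150 genes, 132 overlap a coding gene on the other strand. The partner was the coding gene with the longest overlap, and 9 of them overlap more than 1. The 132 pairs hold 131 coding genes, since Kcnmb4os1 and Kcnmb4os2 share Kcnmb4. The antisense gene lay wholly inside its partner in 74 pairs (56.1%), overlapped it head to head in 26 (19.7%), overlapped it tail to tail in 24 (18.2%) and contained it in 8 (6.06%). In the 1690 pairs of less abundant antisense genes these shares were 57.0%, 23.6%, 16.0% and 3.37%, so the arrangements were similar.

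Annotated exons of the antisense gene and its partner had bases in common in 85 of the 132 pairs (64.4%), against 58.9% of the pairs of less abundant antisense genes. The shared stretch had a median of 256 bases and a median of 14.6% of the antisense gene's exonic bases. Between the most abundant transcripts alone, 53 pairs shared bases, a count added after seeing the data. The longest stretches were 2617 bases between 1110002L01Rik and Kif3c, a kinesin motor gene, and 1052 bases between 4930458D05Rik and Gpat3, an acyltransferase of lipid synthesis. 1110002L01Rik reached 13.6 and 12.8 TPM, against 0.71 and 0.28 TPM for Kif3c. 4930458D05Rik reached 15.2 and 19.7 TPM, against 20.6 and 15.2 TPM for Gpat3. Long shared stretches thus occurred with an unequal pair and with a nearly equal pair.

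Whether the counts kept the strands apart is not stated in the sources used here, and without strand, reads from a gene and its antisense partner cannot be told apart. Reads that fit several genes are divided in expected counts, which then need not be whole. The counts of 146 of the 150 antisense genes were whole numbers within 0.005 in both libraries, and among the 85 pairs with shared exonic bases both genes had whole counts in 79. The deposited notes list separate signal tracks for each strand.

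In 2 genes every annotated exonic base is shared with the partner, and AI507597 stood above its partner whereas Gm28364 stood below. AI507597 had 3654 and 237 counts, against 80 and 17 counts for Tmem82. Gm28364 (chr1:74281161-74281866, plus strand) had 261 and 38 counts, against 9372 and 381 counts for Aamp, a gene of cell migration. Gm28364 thus had 2.78 and 9.97 counts for every 100 counts of Aamp. The most abundant Aamp transcript shares no base with Gm28364, so the overlap concerns other annotated Aamp transcripts.

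**Figure D2:**
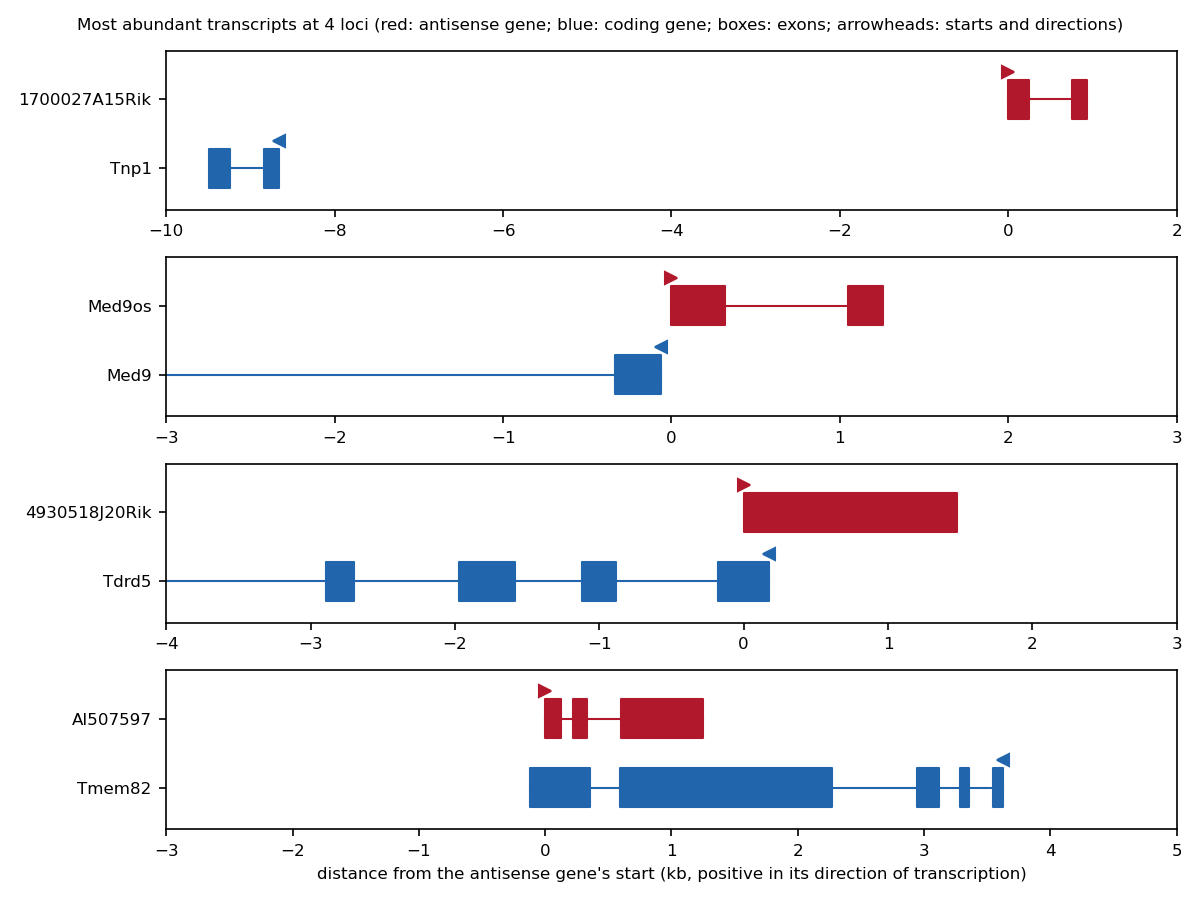
Most abundant transcripts of 4 antisense genes (red) and of a coding gene on the other strand (blue), with boxes for exons and arrowheads at starts, against distance from the antisense start in kb. The starts of 1700027A15Rik and Tnp1 lie 8660 bases apart, Med9os and Med9 start 64 bases apart without overlap, 4930518J20Rik and Tdrd5 overlap at their starts, and AI507597 lies on exons of Tmem82.

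Antisense genes stood above their coding partner more often than below it. In 76 of the 132 pairs (57.6%) the antisense gene was higher in both libraries, in 36 (27.3%) it was lower in both, and in 20 the order turned. Among all 1252 antisense pairs in which either gene reached 1 TPM in both libraries, these included, the antisense gene was higher in 14.6% and lower in 80%. The rule required a high antisense level and no partner level, so nothing is read from that contrast. Of the 20 pairs that turned, 16 had the antisense gene higher only in replicate 1 and 4 only in replicate 2.

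The differences were often large. At 2-fold or more in both libraries, 62 antisense genes were above their partner and 23 below, against 10.8% above and 75.6% below among the 1252 pairs. At 10-fold the numbers were 31 above and 4 below, and at 100-fold 9 above and 0 below. The median log2 ratio of antisense gene over partner, with 0.1 TPM added to each, was 1.09 in replicate 2 and 1.48 in replicate 1. Its quartiles were -1.32 and 3.66 in replicate 2 and -0.46 and 4.92 in replicate 1. TPM scales for length, and antisense transcripts were shorter than coding ones: on counts scaled only for library total, 49 antisense genes were higher and 66 lower, with a median log2 ratio of -0.65.

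Levels within pairs did not track each other across loci. Spearman's rho between antisense and coding log2 TPM was -0.12 in replicate 2 and 0.02 in replicate 1 over the 132 pairs, and Pearson's r was -0.05 and 0.03. The pairs share the library and its depth, and the antisense level was bounded below by the rule.

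**Figure D3:**
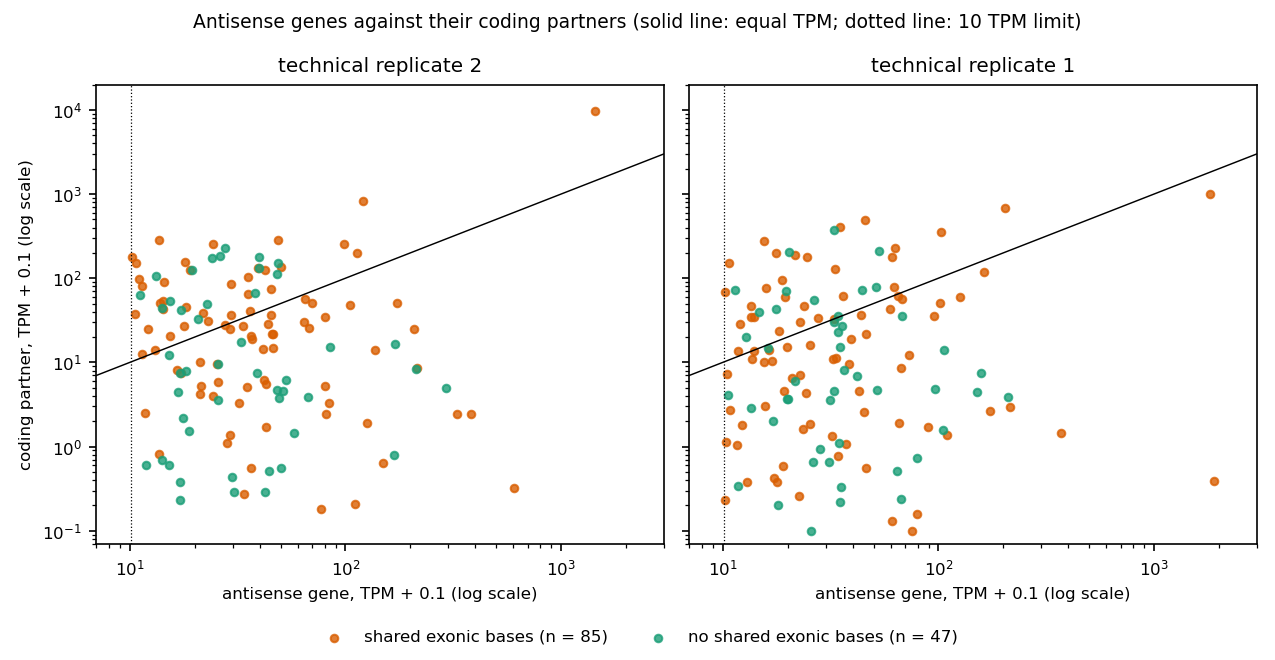
TPM + 0.1 of the 132 antisense genes (x axis) and of their coding partners (y axis) on log axes, in technical replicate 2 (left) and replicate 1 (right), coloured by whether annotated exons share bases (85 pairs) or not (47 pairs). Points below the solid line have the antisense gene above its partner, as do 76 pairs in both libraries.

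Besides Gm11837 and 4930403D09Rik, the pairs with the highest ratios had partners close to 0. Hoxd3os1 (chr2:74703248-74716130, minus strand) reached 110 and 79.1 TPM, against 0.11 and 0.06 TPM for Hoxd3, a body axis transcription factor. Its 1407 and 2458 counts stood against 4.31 and 3.15 counts of Hoxd3. BC050972 (chr9:66798678-66804359, minus strand) reached 77.2 and 46.1 TPM, against 0.08 and 0.45 TPM for Gm10647, which had 2 and 18 counts. 4930486I03Rik (chr1:20356452-20392300, plus strand) reached 33.6 and 60.8 TPM inside Pkhd1, the fibrocystin gene, at 0.17 and 0.03 TPM with 2 and 9 counts. At such counts the size of the ratio is poorly known, while each of the 3 antisense genes had 280 counts or more in both libraries.

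At the other end stood 5 genes whose partner was far higher. Cep112os1 (chr11:108529097-108533664, minus strand) reached 13.6 and 34.7 TPM, against 283 and 406 TPM for Cep112, a centrosomal protein. 4933407I08Rik reached 10.1 and 17.6 TPM, against 179 and 200 TPM for Ppp2r2b, a regulatory subunit of a protein phosphatase. 1700052K11Rik (chr11:105177726-105181433, minus strand) reached 10.5 and 15.5 TPM, against 150 and 279 TPM for the kinase Tlk2. These 3 partners were 11.4-fold or more above the antisense gene in each library.

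1700052K11Rik above had an annotated Tlk2 start 94 bases from its own start. The other 2 of these pairs likewise had an annotated start of the partner close to the antisense start. 1700095J03Rik (chr7:109438618-109444893, plus strand) reached 24.1 and 45.6 TPM, against 256 and 488 TPM for the kinase Stk33. An annotated Stk33 start lies 199 bases from the antisense start, within the overlap. Gm20616 (chr19:26620822-26623419, minus strand) reached 27.4 and 32.8 TPM, against 230 and 379 TPM for Smarca2, a chromatin remodelling ATPase. An annotated start inside the body of Smarca2 lies 36 bases from the Gm20616 start. Stk33 was 10.6-fold and 10.7-fold above its antisense gene, and Smarca2 8.40-fold and 11.6-fold.

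Coding partners of abundant antisense genes were themselves higher than coding genes at large. Of the 132 partners, 65 (49.2%) reached 10 TPM in both libraries, against 28.8% of all 20337 autosomal coding genes and 28.8% of the partners of less abundant antisense genes. At 1 TPM the shares were 79.5%, 54.3% and 60.9%. Partners at very low levels were correspondingly fewer. Under 1 TPM in both libraries stood 16 partners (12.1%), against 33.2% of all coding genes and 24.1% of the partners of less abundant antisense genes. Partner levels had medians of 18 and 10.7 TPM, against 4.82 and 1.80 TPM for all coding genes and 5.88 and 2.58 TPM for the partners of less abundant antisense genes.

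The gap was present with and without shared exonic bases, a split added after the data were seen. Where exons shared bases, 47 of 85 partners (55.3%) reached 10 TPM in both libraries, against 30.1% of the corresponding partners of less abundant antisense genes. Where they shared none, 18 of 47 (38.3%) did, against 26.8%. The part of strand assignment in the first difference was not tested.

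**Figure D4:**
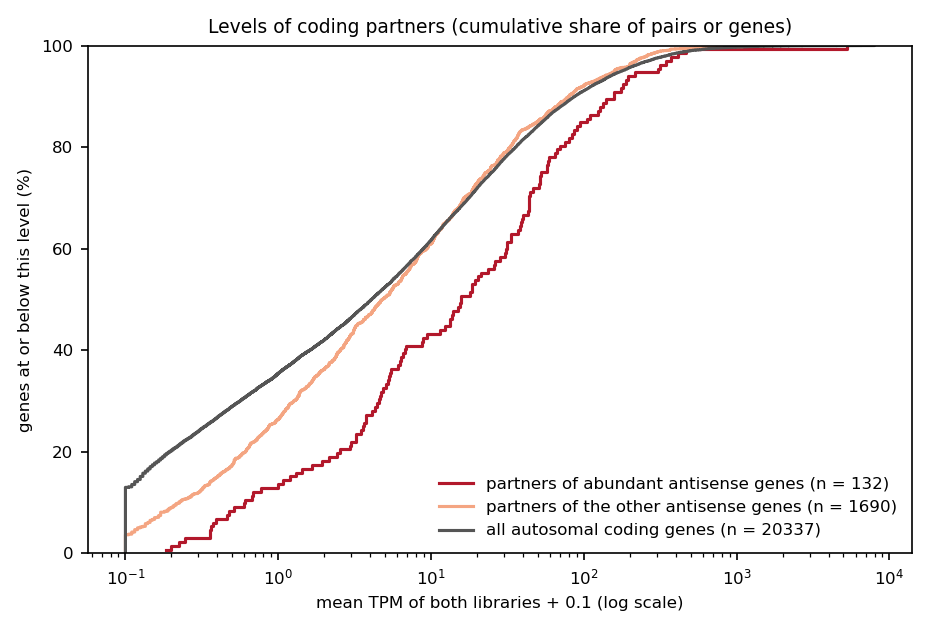
Cumulative share of coding genes (y axis, %) at or below a mean TPM of both libraries (x axis, TPM + 0.1, log scale) for partners of abundant antisense genes (132), partners of the other antisense genes (1690) and all autosomal coding genes (20337). The curve of the abundant genes' partners lies to the right, with 49.2% of partners at 10 TPM or more in both libraries against 28.8% in each of the other sets.

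Partner medians varied with the arrangement of the genes. Where the genes overlapped head to head, partners had medians of 29.7 and 20.3 TPM, and 10 antisense genes were higher and 8 lower in both libraries. Where they overlapped tail to tail, partners had medians of 6.55 and 2.76 TPM, and 17 antisense genes were higher and 6 lower. Where the antisense gene lay inside its partner, partners had medians of 19.7 and 9.79 TPM, with 43 antisense genes higher and 21 lower. In the 8 pairs where the antisense gene contained its partner, partners had medians of 5.37 and 5.67 TPM, with 6 antisense genes higher and 1 lower. Partners of less abundant antisense genes followed another order. Their medians were 3.79 and 1.41 TPM head to head, 11.2 and 3.58 TPM tail to tail, 6.14 and 2.95 TPM around the antisense gene, and 3.07 and 0.91 TPM inside it. Tail to tail, then, partners of the abundant genes were not the higher set.

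The 60 antisense genes that began within 1000 bases of a coding start on the other strand made up 40.0% of the 150, against 34.8% of the less abundant ones. The median distance between the starts was 134.5 bases, and in 39 of the 60 the starts faced away from each other with a gap between them. The nearby coding gene reached 10 TPM in both libraries in 47 of the 60 (78.3%), against 33.1% of the 649 less abundant antisense genes placed the same way. Its level had medians of 52.4 and 37.0 TPM, against 7.91 and 3.14 TPM. Coding genes with such a nearby start were thus mostly present at a substantial level, taken over the whole gene. How much of that level came from the nearby start was not tested. Among the 82 overlapping pairs with distant starts, 42.7% of partners reached 10 TPM, against 27.2% of 1098. The antisense genes themselves were at medians of 27.8 and 21.8 TPM near a coding start, and 35.9 and 34.5 TPM elsewhere.

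Of the 18 genes that overlap no coding gene in the annotation, 10 belong to these close pairs. The examples here and in the next paragraph were picked after their values were seen. Arl4aos reached 43.3 and 33.1 TPM, against 614 and 1271 TPM for Arl4a, a small GTPase, which starts 74 bases away. Saxo1os reached 54.2 and 50.4 TPM, against 92.7 and 89.0 TPM for Saxo1, a stabiliser of axonemal microtubules, with starts 118 bases apart. Cdrt4os2 reached 25.3 and 41.3 TPM, against 529 and 265 TPM for Cdrt4. In these 3 the coding gene was the higher in both libraries, unlike Med9os with Med9.

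Gt(ROSA)26Sor, the Rosa26 locus into which mouse transgenes are often placed, reached 42.5 and 62.9 TPM and starts 155 bases from Setd5, a chromatin gene at 32.7 and 53.5 TPM. Its overlapping partner Thumpd3 was at 125 and 226 TPM. Tug1, a long noncoding RNA known for male infertility when deleted in mice, reached 45.1 and 101 TPM, against 36.6 and 51.2 TPM for Morc2a. The 2 genes overlap head to head, with 483 exonic bases in common. The most abundant Tug1 transcript, with 33.0% and 40.1% of the gene's level, starts 1661 bases from the nearest Morc2a start. Tug1 was among the 4 genes whose counts were not whole in both libraries.

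Partners in the list of developmental transcription factors, taken by the first letters of their symbols, numbered 6 of 132 (4.55%), against 0.821% of all coding genes. The share among partners of less abundant antisense genes was not counted, so the excess cannot be tied to the abundant genes. The 6 include Tbxas1, which matched by spelling and encodes thromboxane synthase. Besides Hoxd3os1, Sox5os3 (chr6:144672868-144693834, plus strand) reached 39.8 and 35.6 TPM inside Sox5, a transcription factor with a testis form, at 134 and 26.6 TPM. 4930538E20Rik reached 25.6 and 24.3 TPM, against 5.69 and 4.28 TPM for Bcl11a, a transcriptional repressor in blood cells. Both antisense genes had similar levels in the 2 libraries, whereas Sox5 did not. Gm12462 reached 21 and 17.8 TPM inside Pax5, the B cell factor, at 10.1 and 0.28 TPM. 1700092C10Rik reached 22.9 and 19.0 TPM, against 30.8 and 0.49 TPM for Nkx2-6, a heart and pharynx factor. 1700025N23Rik reached 17.0 and 11.7 TPM inside Tbxas1 at 0.28 and 0.24 TPM. The 6 antisense genes were each within 1.5-fold between the libraries, while Sox5, Pax5 and Nkx2-6 were each over 5-fold higher in replicate 2. In replicate 1 Pax5 had only 5 counts and Nkx2-6 only 10, so the size of their ratios is poorly known. Sox5 had 2853 and 2301 counts, in libraries of 20675551 and 31995372 counts. Its difference was thus smaller in counts than in TPM, which also scales for transcript length. The rule also left out any antisense gene that fell below its limit in either library, whereas partners had no such floor. Nothing is therefore read from the steadier levels of the antisense genes.

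Partners in the list of germ cell genes numbered 4 of 132 (3.03%), against 1.55% of all coding genes. Here too the share among partners of less abundant antisense genes was not counted. Ddx43 among them matched because its symbol begins with the listed Ddx4. 4930518J20Rik (chr1:156303489-156304966, plus strand) reached 64.9 and 126 TPM, against 56.1 and 58.9 TPM for Tdrd5, a Tudor protein of the piRNA pathway, and their main transcripts share 176 bases at the starts. 1700007P06Rik reached 48.5 and 52.9 TPM inside Spata17, at 151 and 208 TPM. 4930542C12Rik reached 11.3 and 13.4 TPM, against 12.6 and 34.5 TPM for the RNA helicase Ddx43. Tnp1, the fourth, is given above. No partner was in the list of somatic testis cell genes, which holds 9 coding genes.

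Between the libraries, 21 of the 150 antisense genes (14.0%) were 2-fold or more higher in replicate 2 and 24 (16.0%) were 2-fold or more lower. Among all 6411 autosomal genes at 10 TPM in both libraries, 20.7% were higher and 17.7% lower. The median log2 ratio of replicate 2 over replicate 1 was -0.05 over the antisense genes, with an SD of 1.02, and -0.15 over all 6411 genes, with an SD of 1.28. The antisense genes spread less than all genes did. Both sets were cut at 10 TPM in each library, which bounds the ratio of genes close to that limit. The antisense genes lay closer to it, with medians of 32.4 and 32.6 TPM. Coding genes that passed had medians of 50.9 and 44.7 TPM. Nothing is therefore read from the smaller spread. Under TMM scaling 18 antisense genes were higher and 42 lower, so the higher share of those past 2-fold was 30.0% against 46.7% by TPM. All 6411 genes shifted the same way, with 1158 higher and 1804 lower under TMM, a higher share of 39.1% against 53.9% by TPM. TMM moved the median of all genes to -0.40 and that of the antisense genes to -0.33. Both libraries come from the same animal, so these are differences between libraries and not between animals.

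The genes with the highest ratios were AI507597 at 22.1-fold, Gm28364 at 10.3-fold, Dgkeos at 7.77-fold, Kcnmb4os1 at 5.35-fold and Gm4665 at 4.59-fold. Gm28364 reached 121 and 11.7 TPM, and its partner Aamp 818 and 13.6 TPM. Kcnmb4os1 reached 174 and 32.4 TPM, and Kcnmb4, a subunit of potassium channels, 51.2 and 11.0 TPM. Gm4665 reached 48.2 and 10.5 TPM, and Osbpl10, a lipid-binding protein, 113 and 4.03 TPM. In these 3 pairs both genes were higher in replicate 2. Dgkeos was an exception, at 80.4 and 10.4 TPM, against 5.18 and 7.23 TPM for Dgke, a diacylglycerol kinase.

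The lowest ratios were smaller in size. Gm26787 stood at 29.1 and 95.3 TPM, a ratio of 0.305, and Gm11837 had a ratio of 0.320. Gm12204 stood at 13.1 and 34.2 TPM beside the start of Ube2b, a ubiquitin-conjugating enzyme needed for mouse spermatogenesis. Etaa1os stood at 28.2 and 72.8 TPM beside the start of Etaa1, an activator of the ATR checkpoint kinase. Cep112os1 had a ratio of 0.392, and its partner Cep112 was lower in replicate 2 as well.

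Base composition moved with these ratios. Main transcripts of the antisense genes higher in replicate 2 had a median GC content of 53.0%, those of the lower ones 42.4% and those between 47.3%. Spearman's rho between GC content and the log2 ratio was 0.72 over the 150 genes and 0.83 over 6409 genes at 10 TPM in both libraries. The genes share the 2 libraries, and the part of base composition in any ratio given here was not tested.

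**Figure D5:**
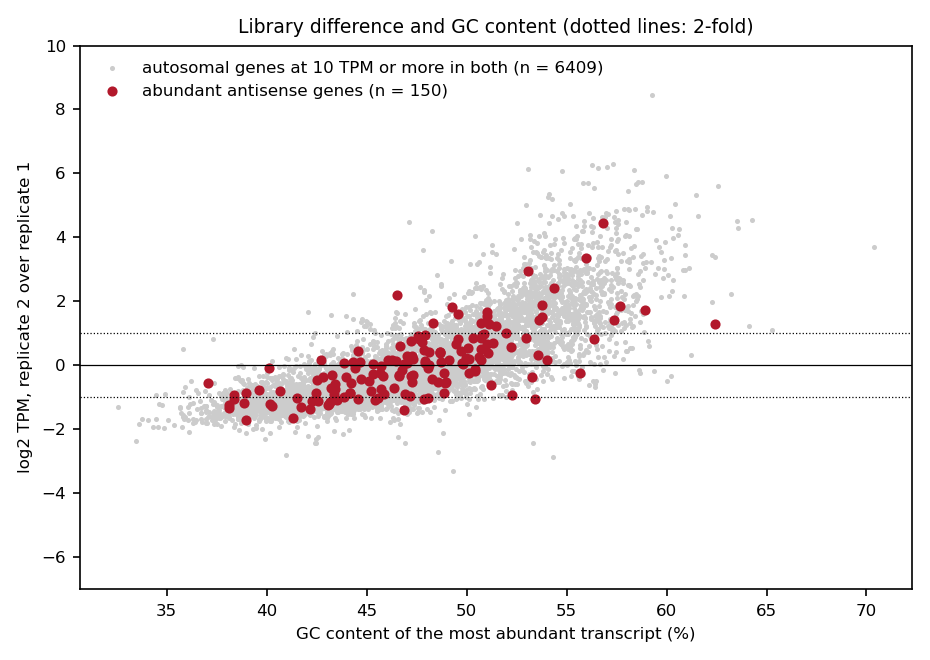
GC content of the most abundant transcript (x axis, %) against the log2 TPM ratio of replicate 2 over replicate 1 (y axis) for 150 abundant antisense genes (red) and 6409 autosomal genes at 10 TPM or more in both libraries (grey). Both sets climb with GC content, with rho of 0.72 and 0.83, and AI507597 is the highest red point at 22.1-fold.

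Over the 105 pairs whose partner reached 1 TPM in both libraries, the ratio of the antisense gene and that of its partner had the same sign in 66. That was 45 of 70 pairs with shared exonic bases and 21 of 35 without. No such count was made for pairs of less abundant antisense genes, so nothing is read from it. Of these 105 partners, 32 (30.5%) were 2-fold or more higher in replicate 2 and 16 (15.2%) lower. Among all 11046 autosomal coding genes at 1 TPM in both libraries, 32.2% were higher and 14.4% lower. In these 2-fold calls the partners thus stood near the background.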

How the data were processed

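PolyA mRNA of testis from 1 mouse was measured in 2 technical libraries. The authors deposited a gene table and a transcript table for each. Per the deposited notes the authors computed expected counts, TPM and FPKM from reads aligned to the transcriptome, separately for each library. The expected counts deposited by the authors are estimated reads and need not be whole. The TPM and FPKM deposited by the authors were scaled for length and depth. The authors also deposited posterior means and an interval of unstated level for TPM, and a percent for how much of a gene's level each transcript carries. The annotation was M4 on assembly mm10. Sources used here do not name the aligner, the quantification program or the strand setting.

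Gene types, names, exons and positions (1-based, mm10) came from GENCODE release M21, matched by identifier without version, and GC content from its transcript sequences. The coding partner was the coding gene on the other strand with the longest overlap, with ties broken by shared exonic bases and then by name. Shared exonic bases used all annotated exons of the transcripts in the tables. Log2 ratios between genes added 0.1 TPM. With 1 animal no p-value was computed, and the groups of genes are described by counts and medians. The members and the gene lists were chosen with earlier results of these data known. Named genes are the 12 of highest mean TPM, the 5 highest and 5 lowest over their partner and between libraries, the 3 just inside and the 3 just outside the limit, the 3 with most shared exonic bases, and those with a partner in a list; others are marked as chosen after their values were seen. The list matches use the first letters of a symbol. Alternatives covered the TPM limit, FPKM, posterior mean TPM, counts scaled by library total, partner choice, scalings of the expected counts (edgeR 4.0.16 TMM, DESeq2 1.42.0 size factors), short transcripts and each library alone. The counting steps were tested on simulated data. Depth was 20675551 and 31995372 expected counts, in the order replicate 2, replicate 1. Software was Python 3.11.15 with pandas 2.3.3, numpy 2.4.6, scipy 1.17.1 and matplotlib 3.10.9, and R 4.3.3.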

Additional observations from a re-analysis of the deposited data

How the results depend on the processing

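The number of abundant antisense genes was 236 at a limit of 5 TPM and 82 at 20 TPM, and 174 to 225 with each library alone, against 150. With the limit of 10 set on FPKM it was 107, and on the lower bound of the TPM interval 126. By posterior mean TPM it was 147, and without transcripts under 350 bases 142. Antisense genes above their partner numbered 80 to 92 and those below 40 to 52 with each library alone, against 76 and 36. Without length scaling, on counts scaled by library total, 49 were above and 66 below and the median log2 ratio was -0.65, against 1.29 by TPM as the mean of both libraries. With the partner chosen by shared exonic bases 45 of 87 were above and the median was 0.73. Among the 47 pairs with no shared exonic base, 31 were above, 12 below and the median was 2.46. The median was 1.09 to 1.48 with each library alone. Genes above, genes below and the median ratio stayed close with FPKM, posterior mean TPM and a pseudocount of 1 TPM. They also stayed close without transcripts under 350 bases. Between the libraries 82 genes were past 1.5-fold, against 45 past 2-fold. The median log2 ratio of replicate 2 over replicate 1 was -0.33 under TMM and under DESeq2 size factors, -0.052 by library totals and 0.00061 among 136 genes averaging 100 counts or more, against -0.046 by TPM. Partners at 1 TPM in both libraries made up 79.5% and partners at 10 TPM in 1 library alone 51.5% to 57.6%, against 49.2%. The cause of these shifts was not tested, other than fewer genes or pairs in the stricter settings. No paired analysis was possible because the series has 1 group. The depth limits the lowest genes, at 22 and 38 counts, and partners with under 10 counts.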
